A study of Mus musculus with 47 samples.

Results

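A set of 10 astrocyte genes, of 54281 genes in the deposited expression table, was followed in mouse cortex after a diet that removes microglia. The members were chosen by name and matched to Ensembl identifiers through GENCODE M21. Of these, 3 are genes that astrocytes raise when they become reactive (Gfap, Vim and Serpina3n) and 7 mark the cell type itself (Aqp4, S100b, Slc1a2, Slc1a3, Gja1, Aldh1l1 and Aldoc). Each symbol matched 1 row, and each member passed the filter of an average of 1 TPM or more, as did 14580 genes in all. TPM is a transcript abundance corrected for length and scaled to a total of 1000000 in each library.

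The 47 libraries were bulk RNA sequencing of cortex from male C57BL/6J mice of about 3 months, 1 library per mouse. The control mice (23 libraries) ate control diet and the other 24 ate chow with 1200 ppm PLX5622, an inhibitor of the receptor CSF1R on whose signaling microglia depend, for 10 days. Mice were killed at Zeitgeber time (ZT) 2, 6, 10, 14, 18 or 22 h, where ZT0 is lights on and ZT12 lights off, with 4 libraries in each of the 12 groups except control ZT14, which had 3. Mice were housed 4 to a cage and the sources used here do not tie cages to groups, so that cage and group cannot be told apart. Libraries held 16597987 to 27626161 counts, with a median of 18314954 in the control group and 21476968 in the PLX5622 group. The 8 microglial markers checked the diet, with a summed level of 236 to 383 TPM in control libraries and 17.8 to 66.8 TPM in PLX5622 libraries. The dissection also varied: 6 libraries (control ZT2 replicate 1, control ZT6 replicate 2, control ZT10 replicate 2, PLX5622 ZT14 replicates 3 and 4, and PLX5622 ZT18 replicate 1) had a mean of 4 cerebellar marker genes between 3.50 and 4.71 on the log2(TPM + 1) scale, against 1.07 to 2.89 in the other 41. Results are therefore also given without those 6.

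Astrocytes support neurons by clearing glutamate and potassium, moving water and feeding metabolites. When tissue is injured or inflamed they change shape and raise cytoskeletal and secreted proteins, a state called reactive, for which the intermediate filament protein GFAP is the usual stain. Microglia are one known source of signals for this change, among them the complement protein C1q, interleukin 1 alpha and tumor necrosis factor, whereas cytokines of the interleukin 6 family act on astrocytes through gp130 and the transcription factor STAT3.

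All 7 identity genes were detected in every library. Over all libraries the mean level per length was 1080.5 TPM for Aldoc (a glycolytic enzyme), 475 for Slc1a2 and 300.3 for Slc1a3 (the glutamate transporters GLT-1 and GLAST), 229 for S100b (a calcium-binding protein), 185 for Gfap, 132 for Gja1 (the gap junction protein connexin 43), 53.1 for Aqp4 (the water channel of the astrocyte endfoot), 52.6 for Aldh1l1 (a folate enzyme), 38.5 for Vim (the intermediate filament protein vimentin) and 9.17 for Serpina3n (a secreted serine protease inhibitor). Aqp4 and Aldh1l1, next to each other in this order, differed by less than the SD of either gene within a diet, as did S100b and Gfap in PLX5622 libraries (227 ± 28.7 and 218 ± 45.0 TPM, SD, n = 24). By mean, Gfap stayed between S100b and Gja1 in both diets. Means of S100b, Gfap and Gja1 were 232, 149 and 126 TPM in control and 227, 218 and 138 TPM in PLX5622 libraries. The order within single libraries differed more between diets. Gfap had a higher TPM than S100b in 0 of 23 control libraries and in 10 of 24 PLX5622 libraries, and a higher TPM than Gja1 in 17 of 23 control and in 24 of 24 PLX5622 libraries.

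**Figure D1:**
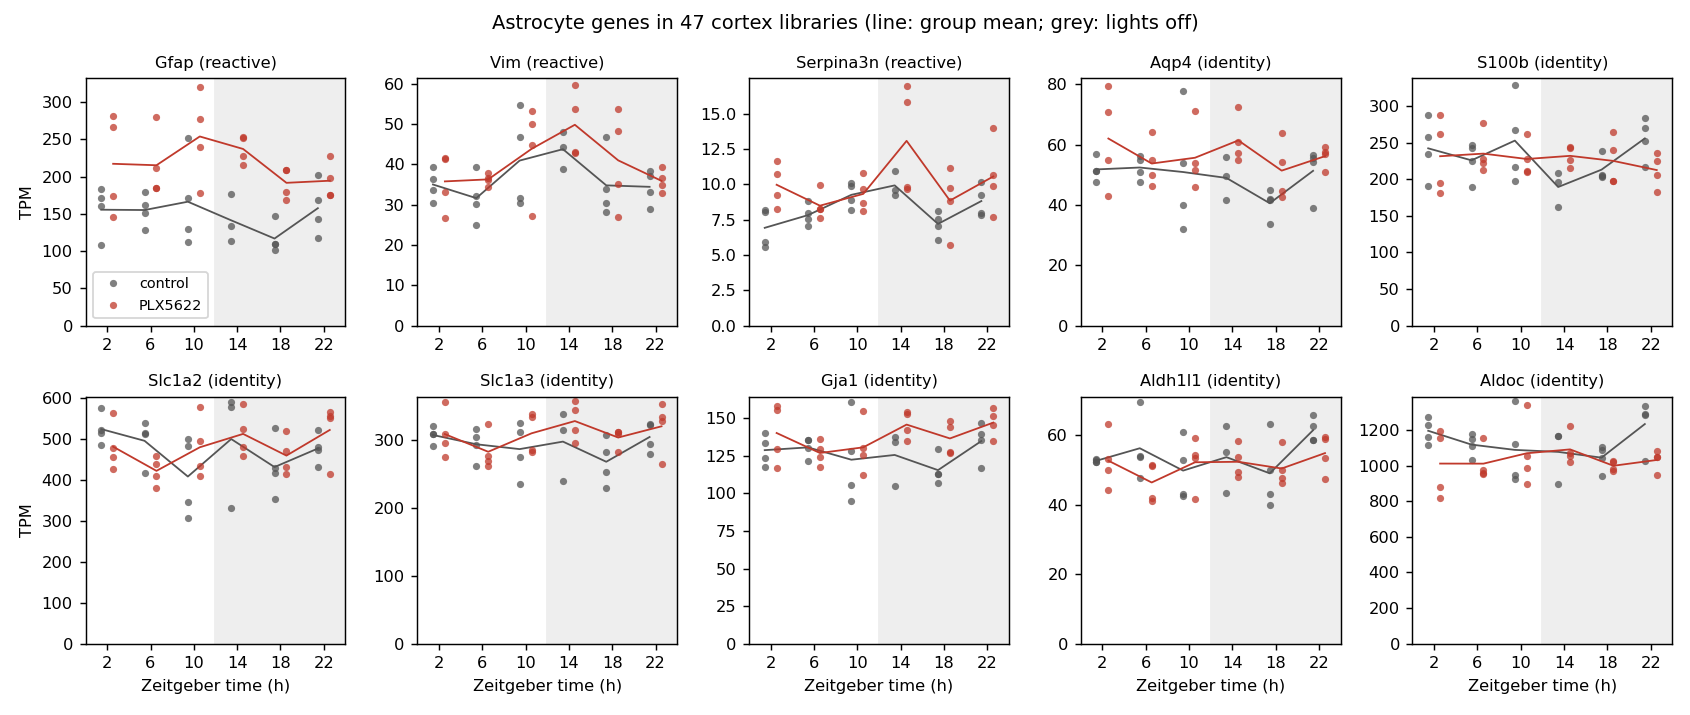
TPM of the 10 members (y axis, from 0) against Zeitgeber time in hours (x axis) in each of 47 libraries (points; control grey, PLX5622 red), with lines through the group means and the dark phase shaded. The Gfap points of PLX5622 libraries lie above every control point at ZT6, ZT14 and ZT18, whereas the points of the identity genes mostly intermingle.

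Gfap was the 1 member called between diets by limma on TPM, and the member with the largest estimated difference. It lies on chromosome 11 (102887336 to 102900912, minus strand, GRCm38). In control libraries Gfap ranged from 102 to 252 TPM with a median of 147, and in PLX5622 libraries from 146 to 321 TPM with a median of 211. In the PLX5622 group 23 of 24 libraries were above the control median, and 7 were above every control library. The mean was 149 ± 36.8 TPM (SD, n = 23) on control diet and 218 ± 45.0 TPM (SD, n = 24) on PLX5622. In limma, which fitted log2(TPM + 1) of all genes on diet and a 24 h cosine and sine, the log2 fold change was 0.56 ± 0.09 (SE), or 1.47-fold on that scale with a 95% interval of 1.30 to 1.66, at an adjusted p of 5.5e-06 (Benjamini-Hochberg over 14580 genes). In bulk tissue, more cells of a type and more RNA per cell cannot be told apart.

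Of the 10 members, 1 was called by limma at an adjusted p under 0.05, where 3.45% of all genes tested were called, 0.871% as higher and 2.58% as lower. Among the 127 genes called as higher in PLX5622, Gfap ranked 2 by adjusted p, 7 by log2 fold change and 4 by mean TPM. Gfap was called in each of the 47 fits that left out 1 library, with a log2 fold change of 0.53 to 0.59. It was also called by edgeR and by DESeq2 on the deposited counts, where 7.08% and 8.0% of genes were called (2.05% and 2.7% as higher, 5.03% and 5.3% as lower), with log2 fold changes of 0.53 and 0.53. The highest control library, ZT10 replicate 2 at 252 TPM, is among the 6 libraries with cerebellar markers. Without those 6 the highest control library was at 203 TPM, 11 of 21 PLX5622 libraries were above it, and the log2 fold change was 0.58 with a limma adjusted p of 1.35e-05. The highest PLX5622 library, ZT10 replicate 2 at 321 TPM, was kept, with a cerebellar marker mean of 2.89. Over all settings tried, the largest adjusted p of Gfap was 0.00044.

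Markers of other cells were read beside Gfap. The 6 choroid plexus markers had a summed level of 67.9 to 1190.4 TPM (median 497) in control libraries and of 147 to 1273 TPM (median 805) in PLX5622 libraries. All 6 had positive log2 fold changes, of which Ttr (0.80), Kcne2 (0.46) and Kl (0.40) passed the limma test at adjusted p values of 0.0452, 0.0475 and 0.0480; these calls were lost in 29, 35 and 32 of the 47 fits that left out 1 library. With the mean of the choroid plexus markers as a covariate the log2 fold change of Gfap was 0.47 and its adjusted p 0.00044. The 4 ependymal markers summed to 21.2 to 46.9 TPM in control and 26.8 to 52.2 TPM in PLX5622 libraries. All 4 had positive log2 fold changes (median 0.13, beside 0.03 over all genes), the largest being Tmem212 at 0.36 (limma p 0.00531, adjusted p 0.101). By limma 0 of 4 were called and 1 of 4 had an unadjusted p under 0.05, and edgeR called 0 of 4. No marker of either list was at 0 in all libraries. With covariates chosen after the data were seen, the log2 fold change of Gfap was 0.50 with hippocampal markers (adjusted p 2.96e-05), 0.60 with striatal markers (adjusted p 2.33e-07) and 0.60 with neuronal markers (adjusted p 1.32e-07). Positive log2 fold changes were found for 4 of 4 tested hippocampal markers (median 0.15), 4 of 4 striatal (0.18) and 5 of 7 neuronal markers (0.06). None of these was called by limma.

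Serpina3n and Vim, the other reactive genes, had smaller differences. Serpina3n (chromosome 12, 104406729 to 104414329, plus strand) was at 5.60 to 10.9 TPM in control libraries (median 8.11) and at 5.72 to 16.9 TPM in PLX5622 libraries (median 9.69). The groups overlapped, although 21 of 24 PLX5622 libraries were above the control median and 5 were above every control library. Its limma log2 fold change was 0.23 ± 0.08 (SE) with an adjusted p of 0.0822, so that it was not called on TPM, whereas edgeR gave 0.24 with an adjusted p of 0.0159 and DESeq2 0.25 with an adjusted p of 0.0083. Leaving out 1 library changed the call as well: without PLX5622 ZT18 replicate 2, at 5.72 TPM the lowest of its diet, the limma log2 fold change was 0.27 and the adjusted p 0.0178. In the other direction, PLX5622 ZT14 replicates 3 and 4, at 16.9 and 15.9 TPM the highest of all, are among the libraries with cerebellar markers, and without all 6 of those the log2 fold change was 0.16 with an adjusted p of 0.323. Over all settings tried its adjusted p ran from 0.0024 to 0.323. The 13 neighbouring Serpina3 genes with rows in the table summed to a mean of 0.684 TPM, the highest being at 0.505 TPM, and how reads of these copies were assigned was not tested.

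Vim (chromosome 2, 13573927 to 13582826, plus strand) was at 25.0 to 54.7 TPM in control libraries (median 33.8) and at 26.8 to 59.6 TPM in PLX5622 libraries (median 38.6). The ranges nearly coincided, with 1 PLX5622 library above every control. Its log2 fold change was 0.13 ± 0.08 (SE), with a 95% interval of -0.02 to 0.29 and a limma adjusted p of 0.403. Vimentin is also made by endothelial, mural and ependymal cells, so its level in cortex is less specific to astrocytes than that of Gfap.

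None of the 7 identity genes was called by limma, edgeR or DESeq2, and 3 of 7 had an unadjusted p under 0.05 with each tool, as did 16.2% of all genes in limma. By limma these were Aqp4, Gja1 and Aldoc, and they did not point the same way. Aqp4 was at 32.0 to 77.7 TPM in control libraries (median 50.8) and 42.8 to 79.5 TPM in PLX5622 libraries (median 54.9), a log2 fold change of 0.21 ± 0.07 (SE) with an adjusted p of 0.126. Without control ZT10 replicate 2, the highest control at 77.7 TPM and 1 of the libraries with cerebellar markers, the log2 fold change was 0.24 and the adjusted p 0.0422, whereas without all 6 of those libraries it was 0.20 with an adjusted p of 0.163, and over all settings its adjusted p ran from 0.00028 to 0.307. Gja1 had a log2 fold change of 0.13 with an adjusted p of 0.147, and the ranges of 94.6 to 161 TPM in control and 112 to 158 TPM in PLX5622 libraries overlapped. Aldoc was lower, at 896 to 1360 TPM (median 1120.1) in control and 819 to 1338 TPM (median 1021) in PLX5622 libraries, a log2 fold change of -0.12 with an adjusted p of 0.192. Only 5 of 24 PLX5622 libraries were above the control median of Aldoc, and 3 were below every control library.

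The remaining 4 identity genes were nearer to 0. Slc1a3 had a log2 fold change of 0.08 (95% interval -0.01 to 0.17), Slc1a2 of 0.04 (-0.10 to 0.17), S100b of -0.02 (-0.14 to 0.11) and Aldh1l1 of -0.06 (-0.17 to 0.06). The intervals of these 4 exclude the log2 fold change estimated for Gfap, as do those of the other members. Slc1a2 and S100b changed sign between settings, Slc1a2 with edgeR (-0.0059) and DESeq2 (-0.0037) and S100b without the libraries with cerebellar markers (0.0014). S100b overlaps Dip2a on the opposite strand, which was at a mean of 20.1 TPM, and strandedness is not given in the sources used here, so reads of the shared stretch could belong to either gene. Over the 7 identity genes the median log2 fold change was 0.04, over the 3 reactive genes 0.23, and over all 14580 genes tested 0.03.

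**Figure D2:**
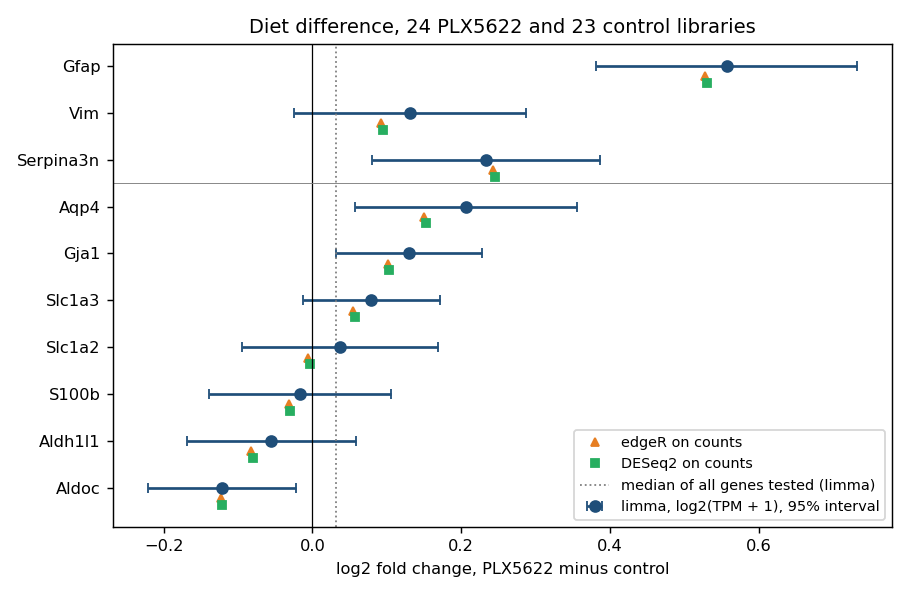
Log2 fold change between diets (x axis, PLX5622 minus control) for each member (y axis, reactive genes above the line), as estimated by limma with its 95% interval (circles) and by edgeR and DESeq2 on counts (triangles and squares). Gfap lies at 0.56 with an interval of 0.38 to 0.73, which overlaps only that of Serpina3n (0.08 to 0.39) among the other members.

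The contrast between reactive and identity genes was also read within each library, as the mean log2(TPM + 1) of the 3 reactive genes minus that of the 7 identity genes. This difference was -2.65 to -2.03 in control libraries (median -2.48, mean -2.43 ± 0.18 SD, n = 23) and -2.59 to -1.76 in PLX5622 libraries (median -2.17, mean -2.16 ± 0.19 SD, n = 24). The means were 0.28 apart on the log2 scale, and 3 PLX5622 libraries were above every control. With the median in place of the mean over genes the distance was 0.15, and without the libraries with cerebellar markers 0.23. The identity mean on its own was 7.63 ± 0.18 (SD, n = 23) in control and 7.66 ± 0.14 (SD, n = 24) in PLX5622 libraries, and the reactive mean 5.20 ± 0.21 (SD, n = 23) and 5.51 ± 0.24 (SD, n = 24). With Gfap alone against the identity mean, a measure chosen after the data were seen, control libraries lay between -0.88 and 0.05 (median -0.36) and PLX5622 libraries between -0.32 and 0.58 (median 0.05), 12 of 24 of them above every control. These are descriptions of chosen genes, and no test was made on them.

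**Figure D3:**
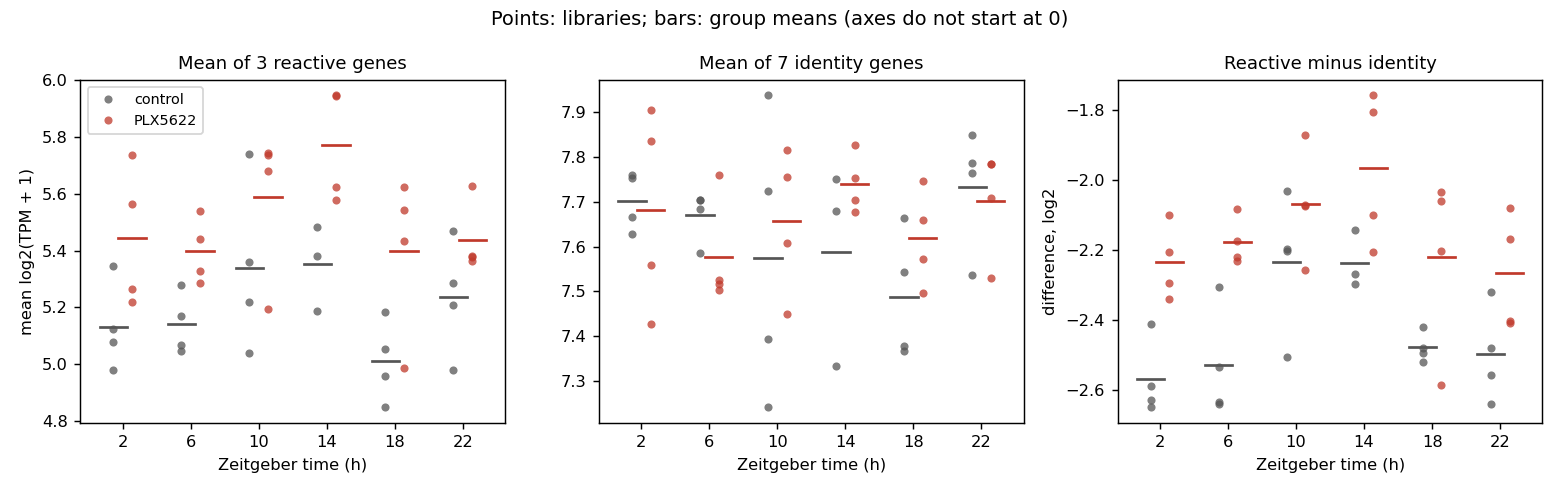
Mean log2(TPM + 1) of the 3 reactive genes (left), of the 7 identity genes (middle) and their difference (right) in each library against Zeitgeber time, with bars at group means; the y axes do not start at 0. Over all times together the diets overlap in all 3 panels. At single times the difference does not overlap at ZT2 (-2.65 to -2.41 in control and -2.34 to -2.10 in PLX5622 libraries) or ZT6 (-2.64 to -2.31 and -2.23 to -2.08). The reactive mean does not overlap at ZT6 or ZT14. The difference averaged -2.43 in control and -2.16 in PLX5622 libraries, and the identity mean 7.63 and 7.66.

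Time of day was the second axis of the design. The PLX5622 mean of Gfap was higher than the control mean at all 6 times, as was true of Vim, Serpina3n and Aqp4 among the members and of 6.47% of the genes tested. At ZT2 the control libraries were at 171, 160.2, 184 and 108 TPM and the PLX5622 libraries at 267, 282, 174 and 146 TPM, which overlapped. At ZT6 the control libraries were at 162, 151, 179.6 and 129 TPM and the PLX5622 libraries at 279.8, 185, 212 and 185 TPM, with no overlap. At ZT10 the control values of 171, 252, 113 and 129.8 TPM overlapped with PLX5622 values of 239.6, 321, 278 and 178 TPM, through the 1 control library at 252 TPM that also carried cerebellar markers.

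In the dark phase Gfap separated at ZT14 and ZT18. At ZT14 the control libraries were at 177, 113 and 133 TPM and the PLX5622 libraries at 253, 228, 216 and 253 TPM. At ZT18 the group mean of Gfap was the lowest of the day in both diets, 117 TPM in control and 192 TPM in PLX5622 libraries. The control libraries were at 147, 109, 110.1 and 102 TPM and the PLX5622 libraries at 209.7, 168, 209 and 180.04 TPM. At ZT22 the values of 203, 143, 168 and 117 TPM in control and 176, 228, 176 and 198 TPM in PLX5622 libraries overlapped again. The share of all genes whose PLX5622 libraries were all above the control libraries was 1.32% at ZT6, 3.17% at ZT14 and 1.15% at ZT18, and 0.0549% of genes (8 of 14580, Gfap among them) did so at 3 or more of the times. Without the libraries with cerebellar markers, the Gfap groups, of 2 to 4 libraries, did not overlap at 4 of the 6 times, and 0.0274% of genes (4 of 14580, Gfap among them) did so at 4 or more. The added time was ZT10, where the control library at 252 TPM was among those left out.

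The limma log2 fold changes of Gfap were 0.45 at ZT2, 0.46 at ZT6, 0.64 at ZT10, 0.76 at ZT14, 0.72 at ZT18 and 0.32 at ZT22, with unadjusted p values of 0.0418, 0.0392, 0.00476, 0.00215, 0.00189 and 0.142. With 3 or 4 libraries per group none passed over all genes, the adjusted p values being 0.498, 0.650, 0.259, 0.192, 0.176 and 0.798, and ZT10 was called (0.87, adjusted p 0.0308) when control ZT10 replicate 2 was left out. Across the 60 pairs of member and time, 0 were called by limma (9 had an unadjusted p under 0.05), 0 by edgeR (6) and 0 by DESeq2 (7). Over all pairs of gene and time limma called 1.06% (6.98% had an unadjusted p under 0.05), edgeR 1.39% and DESeq2 1.61%. Outside Gfap, the groups did not overlap for Serpina3n at ZT2 (5.60 to 8.16 TPM in control and 8.26 to 11.6 TPM in PLX5622 libraries) and for S100b at ZT14 (162 to 209 and 215 to 245 TPM). At these times 2.55% and 3.17% of genes had all PLX5622 libraries above the control libraries.

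Whether the diet difference itself changed over the day was tested by the interaction of diet with the cosine and sine terms. By limma 0 of 14580 genes were called (0.0%), as were 0 by edgeR and 0 by DESeq2, and 4.59% had an unadjusted limma p under 0.05. Of the members, 0 had an unadjusted p under 0.05 by limma, edgeR or DESeq2, the smallest limma p being 0.0841 for Aldoc and that of Gfap being 0.261. The larger Gfap differences at ZT14 and ZT18 were therefore not shown to differ from those at the other times.

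**Figure D4:**
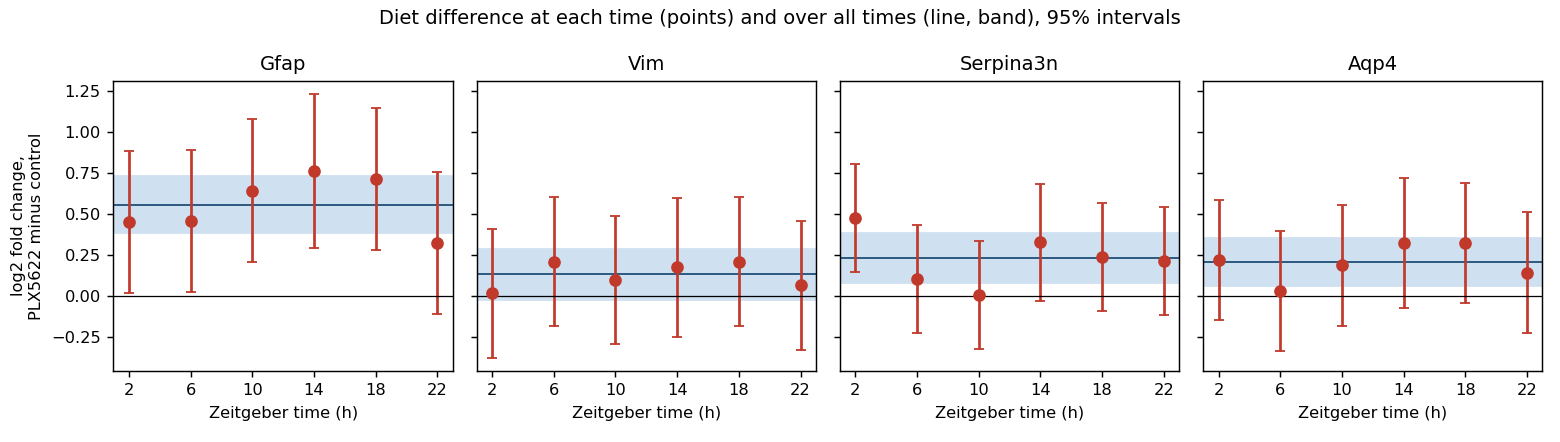
Log2 fold change between diets (y axis, PLX5622 minus control) at each Zeitgeber time (x axis, hours) with its 95% interval for Gfap, Vim, Serpina3n and Aqp4 (points), and the estimate over all times with its interval (line and band). Gfap lies above 0 at each time, from 0.32 at ZT22 to 0.76 at ZT14, and the intervals of the 6 times overlap.

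No member was called rhythmic in either diet. JTK_CYCLE, a rank test against a 24 h cosine, called 0 members in control and 0 in PLX5622 libraries and none had an unadjusted p under 0.05, where 0.0137% and 0.261% of all genes were called. The limma harmonic test called 0 members in each diet, with 0 members in control and 1 in PLX5622 libraries at an unadjusted p under 0.05, where it called 0.247% and 0.926% of genes. The edgeR harmonic test called 0 members in each diet, with 1 in each at an unadjusted p under 0.05, where it called 2.19% and 3.16% of genes. Vim had the largest PLX5622 amplitude, 0.22 ± 0.08 (SE) on the log2 scale (from the mean to the peak) with a fitted peak at ZT13.4, a limma p of 0.0312 and an adjusted p of 0.327, and its control amplitude was 0.15 ± 0.08 (SE) with a peak also at ZT13.4. Gfap had amplitudes of 0.17 ± 0.09 (SE) in both diets, with fitted peaks at ZT5.28 in control and ZT10.2 in PLX5622 libraries.

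Serpina3n had its highest control group mean at ZT14, 9.93 TPM. In PLX5622 libraries the ZT14 mean of 13.1 TPM was also the highest, but without the libraries with cerebellar markers, which leaves 2 of 4 at that time, it was 9.76 TPM, below ZT22 (10.6) and ZT2 (9.97). Its control groups differed between the 6 times at a limma p of 0.00580, which did not pass over all genes (adjusted p 0.199), and those control values ran from 5.60 to 8.16 TPM at ZT2 and from 9.24 to 10.9 TPM at ZT14. Over all 47 libraries the group means of the identity genes spanned a narrower range over the day than those of Gfap. The highest was between 1.15 and 1.35 times the lowest in control libraries and between 1.09 and 1.24 times in PLX5622 libraries, against 1.42 and 1.32 times for Gfap. Without the libraries with cerebellar markers this did not hold for Slc1a2 and S100b in control libraries. Control group means then ran from 117 to 158 TPM for Gfap, from 383 to 525 TPM for Slc1a2 and from 189 to 256 TPM for S100b.

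Members varied together from mouse to mouse. Each library's deviation from the mean of its own group was correlated over the 47 libraries for all 45 pairs of members, with permutation within groups (100000 permutations, two-sided) and adjustment over the 45. The 21 pairs of identity genes had a median Pearson r of 0.69 (0.25 to 0.90), the highest being Aqp4 with Gja1 at r = 0.90 (Spearman rho 0.87, permutation p 1e-05 for both, the smallest possible, adjusted 5.6e-05 and 7.5e-05, and r = 0.86 without the 2 libraries farthest from the median). Gfap went with several identity genes. With Aldoc r was 0.79 (rho 0.72, permutation p 1e-05 and 3e-05, adjusted 5.6e-05 and 0.000135, r = 0.73 without the 2 farthest libraries). With S100b r was 0.78 (rho 0.76, permutation p 2e-05 for both, adjusted 8.2e-05 and 0.000129, r = 0.74 without the 2 farthest). Depth and the makeup of the dissected piece are shared by all genes of a library, and their part in these correlations was not tested.

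Serpina3n stood apart from Gfap in this respect. Their r was -0.003 (rho -0.01, permutation p 0.983 and 0.930, adjusted 0.983 and 0.930, r = -0.05 without the 2 farthest libraries). With S100b the r of Serpina3n was -0.33 (rho -0.36, permutation p 0.0313 and 0.0274, adjusted 0.0402 and 0.0352, r = -0.28 without the 2 farthest). With Gja1 it was 0.34 (rho 0.38, permutation p 0.00983 and 0.0147, adjusted 0.0143 and 0.0206, r = 0.33 without the 2 farthest). With the remaining identity genes the r of Serpina3n ran from -0.11 (Aldoc) to 0.26 (Aqp4). Vim lay between, with r = 0.45 to each of Gfap (rho 0.41, permutation p 0.0092 and 0.0155, adjusted 0.0138 and 0.0211, r = 0.40 without the 2 farthest) and Serpina3n (rho 0.41, permutation p 0.00402 and 0.012, adjusted 0.00696 and 0.018, r = 0.38 without the 2 farthest). Over the 41 libraries without cerebellar markers the identity pairs had a median r of 0.68, and the r of Gfap was 0.75 with Aldoc, 0.75 with S100b and -0.001 with Serpina3n.

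Among the 14580 genes, those whose deviations were most like those of Gfap over the 47 libraries were Slc25a18 (r = 0.82, a mitochondrial glutamate carrier), Kif1c (r = 0.80, a kinesin) and Asrgl1 (r = 0.79, an asparaginase). Their own limma log2 fold changes between diets were 0.02, -0.06 and -0.003, with adjusted p values of 0.914, 0.720 and 0.983. For Vim they were Bmp6 (r = 0.74), Igfbp5 (r = 0.74) and Tcn2 (r = 0.72), of which Tcn2, a vitamin B12 carrier, was lower in PLX5622 libraries at a log2 fold change of -0.27 with an adjusted p of 0.0031. For Serpina3n they were Cntnap4 (r = 0.77), Adcy8 (r = 0.76) and Sema5a (r = 0.75), none of which was called between diets (adjusted p 0.903, 0.977 and 0.408).

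The level of Gfap was set against the mean of the 8 microglial markers in each library, both as deviations from the mean of the library's own group. In the 24 PLX5622 libraries r was -0.32 (rho -0.25, permutation p 0.246 and 0.343, adjusted over 2 relations 0.492 and 0.686) and -0.14 without the 2 farthest libraries. In the 23 control libraries r was -0.03 (rho -0.02, permutation p 0.916 and 0.943, adjusted 0.916 and 0.943) and 0.21 without the 2 farthest. No relation was detectable within either diet.

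Other genes of astrocytes and of reactivity were taken from lists. Of 24 further identity genes, all tested, 1 rose and 0 fell between diets by limma and 0 were called by edgeR or DESeq2, with a median log2 fold change of -0.02 beside 0.03 over all genes. The 1 was Cldn10, a claudin, at 30.1 ± 3.09 TPM (SD, n = 23) in control and 33.3 ± 2.83 TPM (SD, n = 24) in PLX5622 libraries, a limma log2 fold change of 0.14 with an adjusted p of 0.0313. The fold change of Cldn10 was 0.07 in edgeR (adjusted p 0.485) and in DESeq2 (0.469). Its limma call was lost with median-of-ratios scaling (0.178), upper-quartile scaling (0.186), choroid plexus markers (0.156) and hippocampal markers (0.0753), and without control ZT6 replicate 2, control ZT18 replicate 1, control ZT18 replicate 4 or PLX5622 ZT2 replicate 2 (adjusted p 0.0506 to 0.0557). Apoe, the lipid carrier and most abundant gene of the list, was at 5338 TPM in control and 5104 TPM in PLX5622 libraries (log2 fold change -0.06, adjusted p 0.571).

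Of 10 pan-reactive genes, a set described in astrocytes after both inflammation and ischemia, 6 were abundant enough to test, and 1 rose and 0 fell by limma and by edgeR, while DESeq2 called 1 higher and 1 lower (median limma log2 fold change 0.09). The means of Lcn2, Timp1, Cxcl10 and Steap4 were each under 1 TPM in both diets. Cd44, the hyaluronan receptor, was at 0.419 to 1.57 TPM (median 0.901) in control and 0.854 to 1.91 TPM (median 1.21) in PLX5622 libraries, a limma log2 fold change of 0.20 with an adjusted p of 0.0331 (edgeR 0.0204). That call was lost without any 1 of 10 libraries (control ZT2 replicate 2, ZT6 replicate 2, ZT10 replicate 1, ZT18 replicate 1 and ZT22 replicate 1, PLX5622 ZT10 replicate 1, ZT14 replicate 4 and ZT22 replicates 1, 3 and 4), with adjusted p values of 0.0503 to 0.0596. It was also lost without the libraries with cerebellar markers (0.19, adjusted p 0.0726), with choroid plexus markers (adjusted p 0.140), with hippocampal markers (0.108) and with a variance trend (0.0523). Hspb1, a small heat shock protein and the most abundant of the list, was at 24.4 TPM in control and 20.7 TPM in PLX5622 libraries (limma log2 fold change -0.24, adjusted p 0.168), opposite in sign to Gfap, and was the gene DESeq2 called lower.

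Of 11 genes named for neuroinflammatory astrocytes (A1), 10 were tested, 0 rose and 2 fell by limma, with a median of -0.08, whereas edgeR and DESeq2 each called 0 higher and 4 lower. The 2 were Psmb8, an immunoproteasome subunit (6.93 ± 1.40 TPM, n = 23, and 4.42 ± 1.30 TPM, n = 24; log2 fold change -0.57, limma adjusted p 6.94e-06), and Srgn, a proteoglycan of blood and immune cells (log2 fold change -0.24, adjusted p 0.0154, and -0.23 with an adjusted p of 0.0596 without the libraries with cerebellar markers). Of 12 genes named for astrocytes after ischemic injury (A2), 6 were tested, 0 rose and 1 fell by limma, whereas edgeR and DESeq2 each called 1 higher and 1 lower. All 3 tools called Cd14 lower, a lipopolysaccharide receptor that microglia also express, at 2.91 TPM in control and 0.447 TPM in PLX5622 libraries (limma log2 fold change -1.43, adjusted p 2.86e-20). The gene called higher was Tm4sf1, a membrane protein, at 17.4 TPM in control and 19.4 TPM in PLX5622 libraries (edgeR log2 fold change 0.19, adjusted p 0.0061; limma 0.16, adjusted p 0.203). Psmb8, Srgn and Cd14 are genes that microglia or other immune cells express, and their source in these libraries was not tested. The most abundant gene of the A1 list, H2-D1, had a limma log2 fold change of -0.12 (adjusted p 0.318) but was called lower by edgeR (-0.16, adjusted p 0.0158), as was H2-T23 (-0.17, adjusted p 0.0206); both are class I histocompatibility genes. That of the A2 list, S100a10, was not called by limma (-0.01, adjusted p 0.936), edgeR or DESeq2.

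Of the 5 microglial inducers of reactivity, 3 were tested and all 3 fell: C1qa from 105 ± 15.4 TPM (SD, n = 23) to 8.43 ± 5.31 TPM (SD, n = 24), with C1qb and C1qc likewise (log2 fold changes -3.74, -3.63 and -3.46, limma adjusted p 9.79e-21, 4.71e-21 and 3.37e-19). Il1a was at a mean of 0.483 TPM in control and 0.0782 TPM in PLX5622 libraries and Tnf at 0.0274 and 0.0099 TPM, both too low to test. Gfap was higher in the diet group in which the C1q transcripts were lower, and a link between them was not tested. Of 11 genes on the cytokine route to STAT3, 10 were tested, 0 rose and 1 fell by limma (median 0.02), whereas edgeR and DESeq2 each called 0 higher and 2 lower. All 3 tools called Il6ra lower, the ligand-binding receptor for interleukin 6, at 1.90 ± 0.41 TPM (SD, n = 23) in control and 0.836 ± 0.218 TPM (SD, n = 24) in PLX5622 libraries, with 24 of 24 PLX5622 libraries below every control (limma log2 fold change -0.65, adjusted p 9.39e-14). Which cells the Il6ra transcripts came from was not tested. Cntfr, the receptor for ciliary neurotrophic factor and the most abundant of the list, was the other gene that edgeR and DESeq2 called lower. Its log2 fold change was -0.06 in limma (adjusted p 0.561) and -0.15 in edgeR (adjusted p 0.00483). By limma the log2 fold changes were 0.01 for Stat3 itself (adjusted p 0.954) and, for its target Socs3, -0.005 (adjusted p 0.986). The 4 genes listed as intermediate filament partners (Nes, Synm, Lmna and Plec) gave 0 calls by limma, edgeR and DESeq2. By limma 0 of 4 had an unadjusted p under 0.05, and their log2 fold changes were -0.05 to 0.02. The most abundant of them, Lmna, was at 24.1 TPM in control and 23.3 TPM in PLX5622 libraries.

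**Figure D5:**
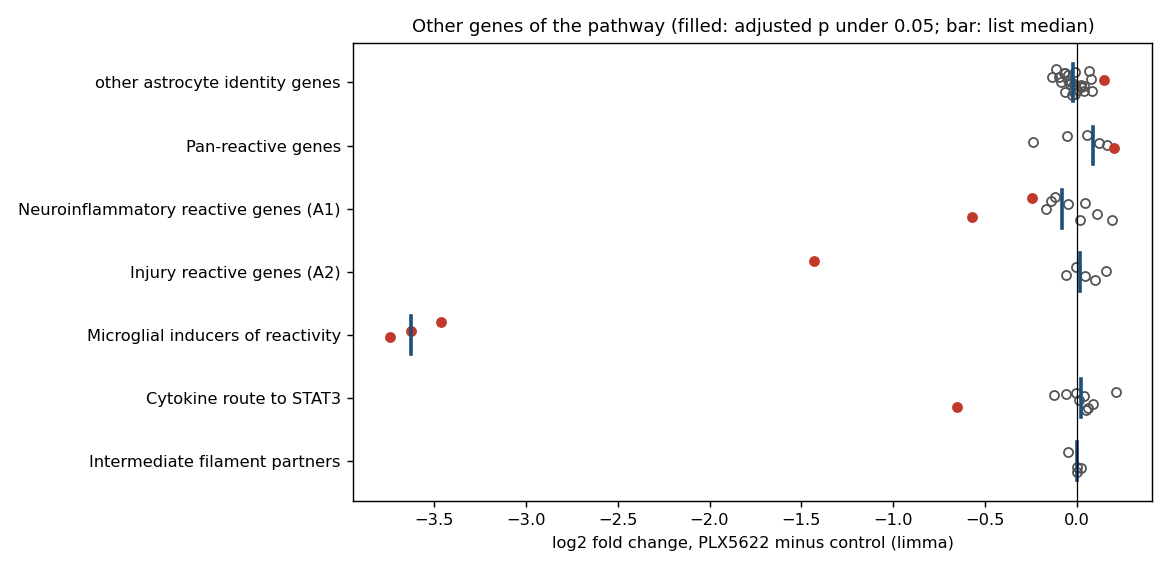
Limma log2 fold change between diets (x axis, PLX5622 minus control) of each tested gene in 7 lists (y axis, vertical jitter has no meaning), filled where the adjusted p was under 0.05, with a bar at each list's median. The medians lie between -0.08 and 0.09 except for the 3 C1q genes at -3.63, and the filled points to the left are Psmb8, Srgn, Cd14, the C1q genes and Il6ra.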

How the data were processed

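Cortex from 47 mice was sequenced in paired ends after RNA extraction with a column kit. According to the study's methods, the authors aligned reads with STAR to GRCm38 and deposited TPM values from Salmon with a comprehensive GENCODE annotation, whose release is not given in the sources used here. A second deposited table holds whole-number counts per gene (16597987 to 27626161 per library), although its name says otherwise; the authors' processing notes list STAR, featureCounts, edgeR, limma and mm10. In 47 of 47 libraries the TPM fitted the counts of the same library best. Replicates are separate mice, and no 2 libraries of a group agreed within sampling noise.

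The members and lists were chosen with earlier results of these data known. Genes with a mean of 1 TPM or more (14580) were fitted as log2(TPM + 1) in limma 3.58.1 (R 4.3.3) on diet and a 24 h cosine and sine, then with their interaction, as 12 groups for the 6 times, and by JTK_CYCLE within each diet (6 phases, adjusted for them). Fold changes on log2(TPM + 1) understate changes of low genes. P-values were adjusted over all genes by the Benjamini-Hochberg method, and called means an adjusted p under 0.05. The counts were tested with edgeR 4.0.16 and DESeq2 1.42.0. Scripts were tested on simulated data. Named genes were the members, the called genes of each list (at most 6) and its most abundant gene, and the 3 genes most correlated with each reactive gene; Il1a, Tnf, Tm4sf1, H2-T23, Stat3, Socs3, Lcn2, Timp1, Cxcl10, Steap4 and the filament partners were named after their values were seen. Alternatives were no filter, a mean of 5 TPM, a pseudocount of 0.1, scaling by the upper quartile or by median of ratios, the replicate number as a block, covariates (3 residual principal components, mitochondrial share, markers of other cells), time as a factor, a variance trend, and each library left out. Hippocampal, striatal and neuronal covariates and the exclusion of libraries with a cerebellar marker mean over 3 were added after seeing the data.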

Additional observations from a re-analysis of the deposited data

Results flagged for a closer look

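In each group of 4 libraries, the gap between an extreme library and its nearest neighbour was compared with the range of the group for every member, 110 checks in all. The gap was above Dixon's 95% critical value 5 times, where chance gives about 1 in 20, or 5.5. None of the 5 concerned a reactive gene. Aqp4 in control ZT22 replicate 4 was at 38.9 TPM against 54.2 to 56.5 TPM in the other 3 libraries. S100b in control ZT18 replicate 1 was at 239 TPM against 203 to 206 TPM. Slc1a2 in PLX5622 ZT22 replicate 3 was at 414 TPM against 551 to 566 TPM. Slc1a3 in PLX5622 ZT18 replicate 3 was at 282 TPM against 308 to 312 TPM. Aldoc in PLX5622 ZT6 replicate 1 was at 1157 TPM against 951 to 978 TPM.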

How the results depend on the processing

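The Gfap call held in all 18 other settings and all 47 fits that left out 1 library. The number of members called between diets was 2 (Gfap and Serpina3n) with scaling by the upper quartile or by median of ratios, the mitochondrial share as covariate, time as a factor, edgeR and DESeq2, 4 with striatal markers and 6 with 3 residual principal components; it was 1 to 2 when 1 library was left out (2 without control ZT10 replicate 2 or PLX5622 ZT18 replicate 2). The principal components leave the estimates as they are and take residual spread out of the error by construction; with them 1 member (Aldoc) was called for the interaction, 14 pairs of member and time were called, and the harmonic test called 5 members in control and 1 in PLX5622 libraries. Pairs of member and time called were 3 with striatal markers, 2 with neuronal markers, 1 with the mitochondrial share (Serpina3n at ZT2) and 0 to 1 when 1 library was left out. The reactive minus identity difference was 0.26 to 0.29 when 1 library was left out, 0.15 with the median over genes, 0.23 without libraries with cerebellar markers, 0.29 with a pseudocount of 0.1 and 0.28 with median-of-ratios scaling, against 0.28. JTK_CYCLE called 0 members under each of its alternatives. S100b changed sign with neuronal markers (0.020) and without libraries with cerebellar markers (0.0014), and ran from -0.039 to 0.0089 when 1 library was left out; Slc1a2 changed sign in edgeR (-0.0059) and DESeq2 (-0.0037). For these shifts the cause was not tested, apart from the principal components.

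Whether replicate numbers pair the libraries was not tested. Deviations of same-numbered libraries had a mean correlation of 0.05 (-0.02 for other pairs), and 30.0% of the 253 same-numbered pairs were over 0.1. With the replicate block 2 pairs were called, Gfap at ZT14 (0.85, adjusted p 0.0169) and at ZT18 (0.72, adjusted p 0.0426), and no other count of members called changed.

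Groups of 3 or 4 libraries limit the contrasts at single times, and Serpina3n, with 161 to 467 counts per library, was the least deeply counted member.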
